A study of Mus musculus with 4 samples.

Results

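The genes of purine and pyrimidine nucleotide synthesis, together with those of nucleoside salvage, nucleotide kinases and deoxynucleotide synthesis, were followed through the washout of a γ-secretase inhibitor in Beko cells, a line of mouse T-cell progenitors in which Notch is active without an added signal. They were taken as 36 gene symbols of the count table, out of 24391 symbols in all, and were arranged into 8 groups by their place in the pathway. All 36 were found and all 36 passed the filter on low counts that left 12266 genes for testing.

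RNA-Seq was measured in 4 libraries, 2 per condition. The GSI libraries came from Beko cells treated for 48 h with DAPT, an inhibitor of γ-secretase, the protease that releases the active intracellular part of Notch. The washout libraries came from cells given the same 48 h of DAPT, then washed and cultured for another 24 h. According to the methods of the study, the inhibitor was renewed once during the treatment. The labels give the dose as 10 mg/ml, while the methods name a unit that is smaller. All libraries come from the same line, the labels do not say whether replicates were separate cultures, and p-values therefore measure the spread between these libraries only, which may be technical. No library of cells that were washed and kept in the inhibitor was analysed here, so that removal of the inhibitor, the wash and the longer time in culture cannot be told apart.

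Nucleotides are either built from small precursors or recovered from bases and nucleosides. In the purine route, phosphoribosyl pyrophosphate (PRPP), an activated ribose phosphate, is extended step by step into inosine monophosphate (IMP), which is then turned into AMP or GMP. In the pyrimidine route, the ring is completed before the ribose phosphate is attached, giving UMP and then CTP. Ribonucleotide reductase and thymidylate synthase feed both routes into deoxynucleotides for DNA replication. Dividing lymphoid progenitors are known for a high demand on these pathways.

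The promoters of the genes are shown where they hold an E-box, the palindrome CACGTG that is known as a binding motif of Myc and related factors, because, of the 3 motifs searched, its share of genes stood furthest in percentage points from that of all genes. RefSeq promoter windows, which run from 250 bases before to 50 bases after a start site, were found for 33 of the 36 genes; Pfas, Dhodh and Rrm2b had no entry. In these windows the E-box was found in 6 of 33 genes (18.2%), against 8.09% of 27025 genes. Read per window, it was in 7 of 41 (17.1%), against 7.15% of 32851 windows. All 41 windows matched the mm9 genome exactly and once, and the coordinates below are of mm9. Sequences read 5′ to 3′ on the strand of the gene, with the E-box in capitals.
Atic, chr1:71603711-71603729, plus strand, E-box at -7 from the start: ggacctcggggtCACGTGg
Paics, chr5:77380112-77380141, plus strand, E-box at -203: cgcctcggaaagCACGTGgagggacctgct
Impdh2, chr9:108462617-108462702, plus strand, E-box at -110: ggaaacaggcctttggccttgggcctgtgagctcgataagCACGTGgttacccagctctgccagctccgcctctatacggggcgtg
Nme1, chr11:93829587-93829616, minus strand, E-box at -18: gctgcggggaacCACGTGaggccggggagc
Nme1, chr11:93829340-93829408, minus strand, E-box at -29 from another start: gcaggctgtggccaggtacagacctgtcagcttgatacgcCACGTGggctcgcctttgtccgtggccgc
Dtymk, chr1:95698614-95698699, minus strand, E-box at -148: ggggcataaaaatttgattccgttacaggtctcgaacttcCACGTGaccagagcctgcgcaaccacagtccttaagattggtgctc
Tyms, chr5:30400181-30400266, minus strand, E-box at -61: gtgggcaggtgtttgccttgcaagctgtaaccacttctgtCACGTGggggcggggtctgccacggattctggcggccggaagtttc

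The Impdh2, Dtymk and Tyms stretches lie upstream of the annotated gene. The Atic stretch runs across the annotated start of the gene. The Paics stretch lies within the span of Ppat, its neighbor on the other strand, within annotated UTR bases. Both Nme1 stretches lie within the span of Nme1, that at -18 within annotated UTR bases and that at -29 outside them. Of the 6 genes with an E-box, 5 were upregulated past both thresholds described below. Of the 33 genes with a window 19 were, against 7.74% of all genes tested. Whether the motif goes with the rise was not tested. The RBPJ motif TGGGAA was found in 21.2% of the 33 genes, namely Cmpk1, Ctps2, Guk1, Hprt, Pnp, Tyms and Uck2, against 28.3% of all genes. The E2F motif, searched as TTTCCCGC, TTTGGCGC, TTTCGCGC and TTTGCCGC, was found in the windows of Ppat and Prps2 (6.06%, against 2.60% of all genes). Each motif was searched on both strands, and no match of a motif overlapped a match of another. A match is a stretch of letters, and binding was not measured in these libraries.

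Upon washout, most genes of nucleotide synthesis rose together. Levels are given as CPM, counts relative to the library total after scaling by TMM factors, with replicate 1 before replicate 2. The summed level of the 36 genes was 3438 and 3673 CPM in the GSI libraries and 7903 and 7425 CPM in the washout libraries. Both washout libraries lay above both GSI libraries, by far more than replicates differed from each other. The counts are relative to all RNA in bulk cultures, so that fewer cells expressing a gene and less RNA per cell cannot be told apart.

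The conditions were compared with the quasi-likelihood test of edgeR, with p-values adjusted by Benjamini-Hochberg over all 12266 genes, and genes were called at an adjusted p under 0.05 together with a log2 fold change above 1 or below -1, both thresholds of the study. Past both, 21 of the 36 genes were upregulated (58.3%), against 7.74% of all genes tested, with adjusted p from 0.000281 to 0.00232. Only 1 of the 36 was downregulated past both (2.78%), against 11.7% of all genes tested. By the adjusted p alone, 29 genes rose (80.6%), against 27.0% of all genes tested, and 4 fell (11.1%), against 25.4%. The remaining 3, Ada, Uck1 and Cmpk1, did not pass. In 29 of the 36 genes both washout libraries lay above both GSI libraries, which held for 38.2% of all genes tested. The opposite order was found in 5 genes, Impdh1, Adssl1, Ctps2, Uck1 and Rrm2b, and in 39.1% of all genes tested. The median log2 fold change was 1.09 over the 36 genes and -0.01 over all genes tested.

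**Figure D1:**
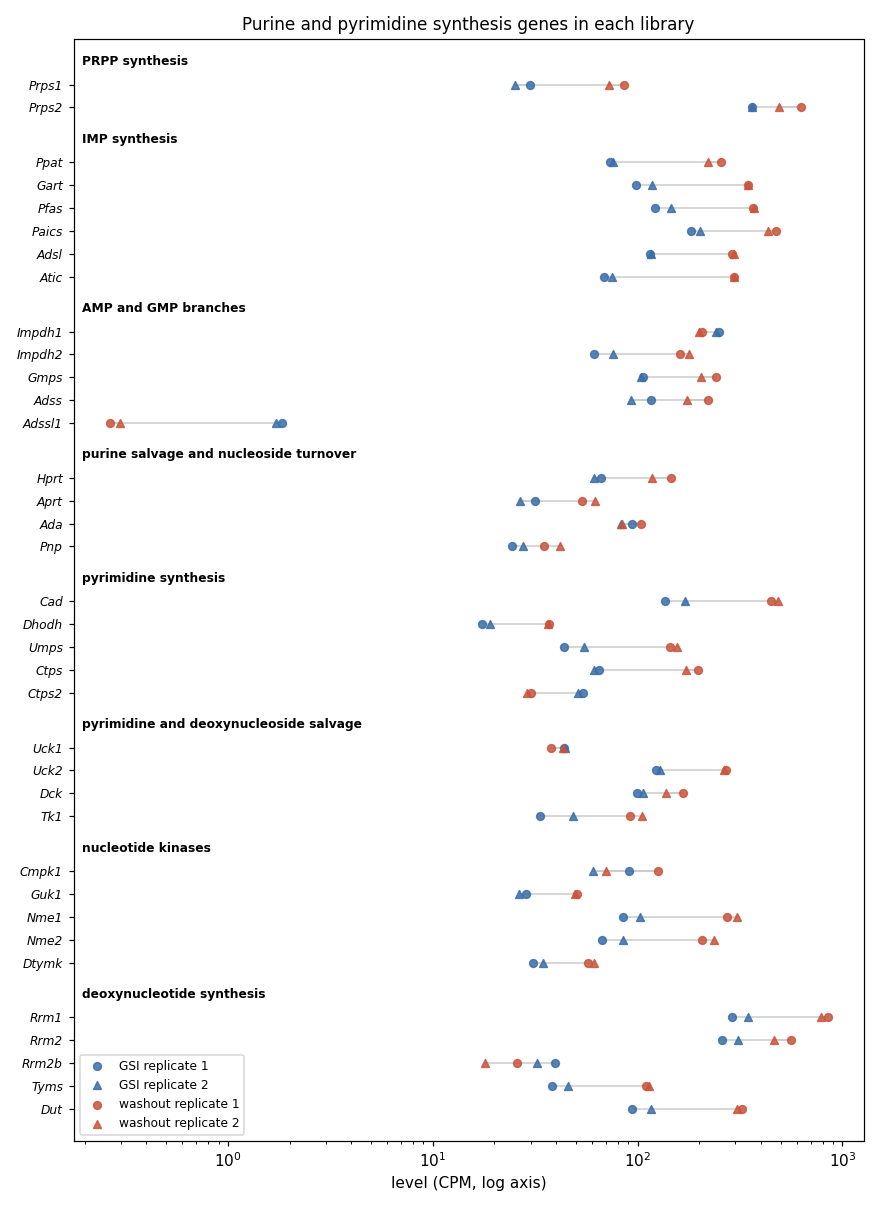
Level of each of the 36 genes in CPM (log axis) in the 4 libraries, by place in the pathway; blue points are GSI and red points are washout, circles replicate 1 and triangles replicate 2. Red points lie to the right of blue ones in 29 genes, to the left in Impdh1, Adssl1, Ctps2, Uck1 and Rrm2b, and are mixed with them in Ada and Cmpk1.

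Scaling set how many of these calls were made. With the total count alone in place of TMM factors, the median log2 fold change of all genes moved to -0.21. That of the 36 genes moved to 0.89. The distance between the medians was 1.10 with either scaling. This follows by construction, because the change of scaling shifts every gene by nearly the same amount. The calls over all genes went from 950 up and 1437 down (39.8% up) to 586 up and 1963 down (23.0% up), and 17 of the 36 genes remained upregulated past both thresholds.

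The 2 genes that make PRPP moved by different amounts. Prps1, a PRPP synthetase, was at 29.9 and 25.2 CPM in GSI and went up to 85.7 and 72.5 CPM, with a log2 fold change of 1.52 ± 0.14 (SE, n = 2 libraries per condition, as for each SE below). Prps2, the related synthetase, was the more abundant at 360 and 361 CPM in GSI, and rose less, to 629 and 492 CPM (log2 fold change 0.64 ± 0.14, adjusted p = 0.0113). The adjusted p of Prps2 rose to 0.0583 when GSI replicate 1 was left out and was also above 0.05 without GSI replicate 2. The libraries of the conditions did not overlap for either gene.

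All 6 genes that carry PRPP to IMP were upregulated past both thresholds, against 7.74% of all genes tested. These 6 genes rose by 2.36-fold to 4.12-fold, with adjusted p from 0.000281 to 0.000517. Their summed level went from 659 and 730 CPM to 2019 and 1964 CPM. Ppat, the amidophosphoribosyltransferase that commits PRPP to purines, went from 73.1 and 76.2 CPM to 255 and 222 CPM (3.19-fold). Gart, which carries several activities of the route on the same protein, went from 98.5 and 118 CPM to 345 and 347 CPM (3.20-fold). Pfas, the formylglycinamidine ribonucleotide synthase, was at 122 and 145 CPM and then at 364 and 370 CPM. Each washout library of these genes stood above each GSI library by far more than the replicates differed. Paics, the bifunctional enzyme of the middle steps, went from 183 and 201 CPM to 472 and 435 CPM, the smallest rise of the group at 1.24 ± 0.11 on the log2 scale. Adsl, adenylosuccinate lyase, which also acts in the AMP branch, went from 115 and 116 CPM to 288 and 296 CPM. Atic, which closes the purine ring, went from 68.8 and 74.6 CPM to 295 and 295 CPM. Its log2 fold change of 2.04 ± 0.10 was the largest rise among the 36 genes. Adsl and Atic showed no overlap between conditions, and neither did Paics.

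Levels were compared per length, as CPM per kb of the merged exons of all coding transcripts of a gene. Paics was the highest of these 6 genes in every library, at 73.5 and 81.0 in GSI and at 190 and 175 upon washout. Atic followed upon washout at 104 CPM per kb in both libraries, whereas in GSI it was at 24.2 and 26.2, between the values of Gart (24.7 and 29.5) and of Pfas (18.7 and 22.3) and overlapping with the former. Ppat and Pfas were the lowest upon washout, at 64.0 and 55.6 and at 56.1 and 57.1 CPM per kb, and overlapped. The alignment allowed introns of up to 3000 bases. Of the 36 genes, 28 have at least 1 longer intron, 8 have none, and the part of this limit in the order of levels between genes was not tested. Ppat and Paics start head to head on chromosome 5, Ppat at 77342274 to 77380603 on the minus strand and Paics at 77380332 to 77396534 on the plus strand. Their exons overlap by 272 bases, and the strand setting of the counting is not given in the sources used here, so that reads in the overlap cannot be told apart.

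Beyond IMP, the AMP and GMP branches were mixed. Past both thresholds, 2 of 5 genes were upregulated and 1 downregulated, against 7.74% and 11.7% of all genes tested. Impdh2, the IMP dehydrogenase isoform typical of dividing cells and the rate-limiting step towards GMP, went from 61.5 and 75.7 CPM to 161 and 178 CPM (log2 fold change 1.31 ± 0.13). Gmps, GMP synthetase, went from 107 and 104 CPM to 242 and 203 CPM (1.08 ± 0.12). The call of Gmps was lost without washout replicate 1, at 0.96, and with the total count, at 0.88. Impdh1, the other IMP dehydrogenase isoform, was lower upon washout, going from 250 and 241 CPM to 205 and 199 CPM. Its log2 fold change was small, -0.28 ± 0.09 with an adjusted p of 0.0440, and went to -0.02 with an offset for GC content and exon length (adjusted p = 0.835). Adss, the adenylosuccinate synthase of most tissues, went from 117 and 92.5 CPM to 222 and 174 CPM (0.92 ± 0.16, adjusted p = 0.00467). It passed both thresholds when GSI replicate 1 or washout replicate 2 was left out (1.10 and 1.08). Adssl1, the muscle isoform of adenylosuccinate synthase, went from 1.84 and 1.71 CPM to 0.264 and 0.298 CPM. The counts of Adssl1 were low, 59 and 25 reads in GSI and 9 and 4 upon washout. Its log2 fold change of -2.67 ± 0.38 (adjusted p = 0.00214) made it the only gene of the 36 that fell past both thresholds.

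**Figure D2:**
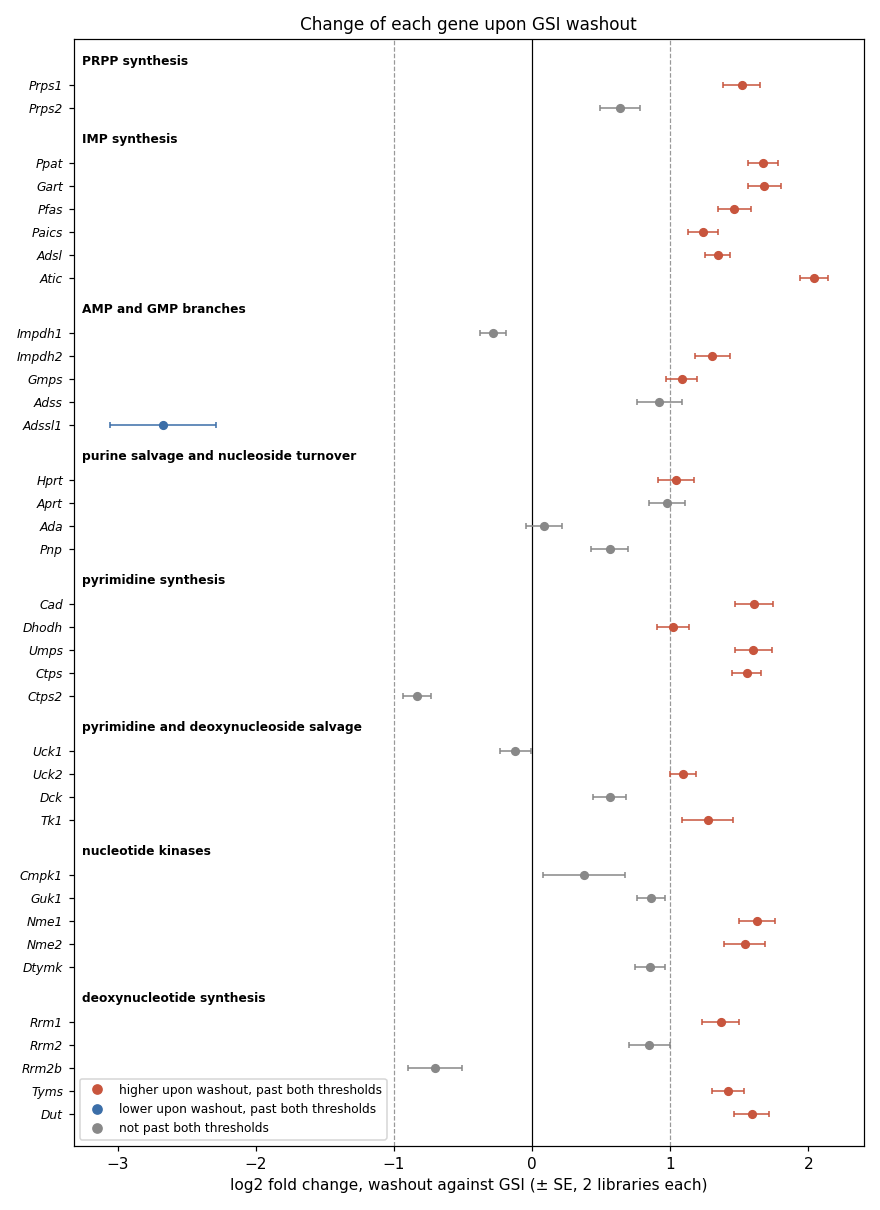
Log2 fold change of each of the 36 genes, washout against GSI, with its standard error from the edgeR fit (2 libraries per condition); dashed lines mark a log2 fold change of -1 and 1. The 6 genes of IMP synthesis all lie above 1, from 1.24 for Paics to 2.04 for Atic, and Adssl1 at -2.67 is the lowest of all.

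The group of purine salvage and nucleoside turnover had a median log2 fold change of 0.77 over 4 genes, against 1.57 over the 6 genes of IMP synthesis. This difference was not tested. The median lay between Hprt and Aprt, at 1.04 and 0.98, and Pnp and Ada, at 0.56 and 0.09. Salvage enzymes outside these 4 genes are in a further list below. Hprt, which recovers hypoxanthine and guanine, was the only one past both thresholds, and went from 66.3 and 61.5 CPM to 146 and 117 CPM. Its log2 fold change of 1.04 ± 0.13 lay near the threshold and fell below it without GSI replicate 2 (0.99), without washout replicate 1 (0.88), with the total count (0.84) and with the GC content offset (0.67). Aprt, which recovers adenine, went from 31.4 and 26.7 CPM to 53.3 and 61.6 CPM (0.98 ± 0.13, adjusted p = 0.00168). Aprt passed both thresholds without GSI replicate 1 (1.10) or washout replicate 1 (1.08). Pnp, purine nucleoside phosphorylase, went from 24.4 and 27.5 CPM to 35.1 and 41.7 CPM (0.56 ± 0.13, adjusted p = 0.0142), and its adjusted p rose to 0.0896 without GSI replicate 1, to 0.0566 with the total count and to 0.0670 with the GC content offset. Ada, adenosine deaminase, whose loss is known to be toxic to lymphocytes, was at 94.0 and 83.4 CPM before and at 104 and 83.9 CPM after the washout. The conditions overlapped for Ada, and its log2 fold change of 0.09 ± 0.13 (adjusted p = 0.610) turned to -0.11 with the total count.

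In the pyrimidine route, 4 of 5 genes were upregulated past both thresholds, against 7.74% of all genes tested. Cad, which carries the opening steps of the route on 1 large protein, went from 136 and 170 CPM to 448 and 485 CPM (log2 fold change 1.61 ± 0.14). Dhodh, the mitochondrial enzyme that oxidizes dihydroorotate, was low at 17.5 and 19.0 CPM and rose to 37.1 and 36.7 CPM (1.02 ± 0.11). Its call was lost without GSI replicate 1, at 0.96, with the total count, at 0.82, and with a minimum of 10 counts per library or thinning, at 0.98 in each. Umps, which makes UMP, went from 43.7 and 55.0 CPM to 143 and 155 CPM (1.60 ± 0.13). No library of the GSI condition reached the level of a washout library for these genes. Ctps, the CTP synthase known from proliferating lymphocytes, went from 64.5 and 61.3 CPM to 197 and 173 CPM (1.56 ± 0.11). Ctps2, the related CTP synthase, moved the other way, from 54.1 and 51.0 CPM to 30.2 and 28.8 CPM (-0.83 ± 0.10, adjusted p = 0.00122). With the total count and with the GC content offset, Ctps2 was also past the fold threshold, at -1.03 and -1.01.

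Salvage of pyrimidines and deoxynucleosides was carried by 4 genes. Uck2, a uridine-cytidine kinase, went from 124 and 129 CPM to 272 and 265 CPM (log2 fold change 1.09 ± 0.09), and was at 0.89 with the total count, short of the fold threshold. Uck1, the related kinase, was at 43.8 and 44.0 CPM before and 37.7 and 43.3 CPM after the washout (-0.12 ± 0.11, adjusted p = 0.395), and its sign turned with the GC content offset, to 0.02. With the total count Uck1 was at -0.32 and passed the adjusted p, at 0.0478. Tk1, the thymidine kinase of S phase, went from 33.3 and 48.5 CPM to 91.4 and 105 CPM (1.27 ± 0.19). Tk1 had the widest error of the genes called up. Dck, deoxycytidine kinase, went from 99.4 and 107 CPM to 166 and 138 CPM (0.56 ± 0.12, adjusted p = 0.00892, and 0.0564 without GSI replicate 1). The exons of Tk1 overlap those of Afmid by 83 bases and those of Uck1 overlap Pomt1 by 4 bases, each on the other strand.

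Among the nucleotide kinases, 2 of 5 were upregulated past both thresholds, against 7.74% of all genes tested. Nme1, a nucleoside diphosphate kinase that completes triphosphates, went from 84.9 and 103 CPM to 273 and 306 CPM (log2 fold change 1.63 ± 0.13). Nme2, its neighbor and close relative, went from 66.7 and 85.3 CPM to 205 and 236 CPM (1.54 ± 0.15). The genes lie side by side on the minus strand of chromosome 11, Nme2 at 93811128 to 93817573 and Nme1 at 93818293 to 93829835, and the annotation holds a further model named Nme2, from 93811133 to 93829607, that runs through Nme1. How reads were split between them is uncertain. Guk1, guanylate kinase, went from 28.6 and 26.4 CPM to 50.5 and 49.6 CPM (0.86 ± 0.10, adjusted p = 0.00116). Dtymk, thymidylate kinase, went from 30.8 and 34.7 CPM to 57.0 and 61.2 CPM (0.85 ± 0.11, adjusted p = 0.00145). Both rose without reaching the fold threshold, and their conditions did not overlap. Cmpk1, the UMP and CMP kinase, was at 90.6 and 60.7 CPM before and at 126 and 70.4 CPM after the washout. For Cmpk1 the conditions overlapped (0.38 ± 0.30, adjusted p = 0.326), while replicate 1 was above replicate 2 in both. The value of Cmpk1 depended on the libraries and the fit: it was -0.11 without washout replicate 1, 0.73 without washout replicate 2 (adjusted p = 0.0146) and 0.41 with no filter beyond 1 count (adjusted p = 0.00235), and a replicate block brought its adjusted p to 0.000674 at 0.36.

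In deoxynucleotide synthesis, 3 of 5 genes were upregulated past both thresholds, against 7.74% of all genes tested. Rrm1, the large subunit of ribonucleotide reductase, went from 288 and 345 CPM to 846 and 785 CPM (log2 fold change 1.37 ± 0.13). Rrm2, the small subunit used in S phase, went from 260 and 310 CPM to 563 and 462 CPM (0.85 ± 0.15, adjusted p = 0.00437), a rise short of the fold threshold. Rrm2b, the small subunit known to be induced by p53 for DNA repair and for resting cells, fell from 39.3 and 32.4 CPM to 25.8 and 17.9 CPM (-0.70 ± 0.20, adjusted p = 0.0244). The fall of Rrm2b depended on single libraries: it was -0.48 without washout replicate 2 and just past the fold threshold without washout replicate 1, and its adjusted p was 0.114 without GSI replicate 1. Tyms, thymidylate synthase, went from 38.3 and 45.9 CPM to 110 and 114 CPM (1.42 ± 0.12). Dut, the dUTPase that keeps uracil out of DNA, went from 93.7 and 116 CPM to 322 and 307 CPM (1.59 ± 0.13). Those past both were Rrm1, Tyms and Dut. Per length, Rrm2 was the highest of the 36 genes in both GSI libraries, at 109 and 130 CPM per kb. Upon washout Rrm2 stood at 237 and 194 CPM per kb and overlapped with Rrm1, at 212 and 196, with Uck2, at 204 and 199, and with Nme2, at 175 and 201.

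In 7 places of the pathway the 36 genes hold a pair of related enzymes, and the values within each pair are set side by side here. For Ctps over Ctps2 the log2 ratio of CPM was 0.25 and 0.27 in GSI and 2.71 and 2.59 upon washout, a difference of 2.39 (SD within conditions 0.06), or 5.22-fold. Per length, Ctps made up 62.7% and 62.8% of the pair in GSI and 90.2% and 89.4% upon washout. Per length, Impdh2 made up 29.4% and 34.7% of the pair with Impdh1 in GSI and 57.1% and 60.1% upon washout, whereas by CPM it was below Impdh1 in all 4 libraries. The log2 ratio of Impdh2 to Impdh1 differed by 1.59 (SD 0.20). Prps1 was at 13.5% and 11.6% of the pair with Prps2 per length, and then at 20.4% and 21.7%, a difference in the log2 ratio of 0.90 (SD 0.14). Rrm2 already made up 93.3% and 95.3% of the pair with Rrm2b in GSI, against 97.9% and 98.2% upon washout, a difference of 1.58 (SD 0.29). Uck2 went from 83.3% and 83.8% of the pair with Uck1 to 92.7% and 91.6%, a difference of 1.21 (SD 0.12). Adss made up 97.2% or more of the pair with Adssl1 in each library, and the difference of 3.58 (SD 0.28) rests on the low counts of Adssl1. For Nme1 over Nme2 the difference was 0.09 (SD 0.04), the smallest of the 7, with shares of 30.9% and 29.7% in GSI and 31.8% and 31.2% upon washout. These shares are per length, whereas by CPM Nme1 was above Nme2 in all 4 libraries.

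The ratios did not overlap between conditions in any of the 7 pairs. With 2 libraries against 2 such separation is frequent. Levels were higher in both washout libraries for 38.2% of all genes tested and lower in both for 39.1%. The share over the ratios of other pairs of genes was not computed. With 2 libraries against 2, the exact permutation test of a pair cannot go below p = 0.333 (two-sided), which was its value for each pair and also after adjustment over the 7 pairs, so that no difference of a ratio could pass 0.05. Within the fit over all genes, both members of the Ctps and Impdh pairs passed the adjusted p in opposite directions, as did those of the Adss and Rrm2 pairs. For Impdh1 this rested on an adjusted p of 0.0440 that was lost in several alternatives, among them leaving out any of the 4 libraries.

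**Figure D3:**
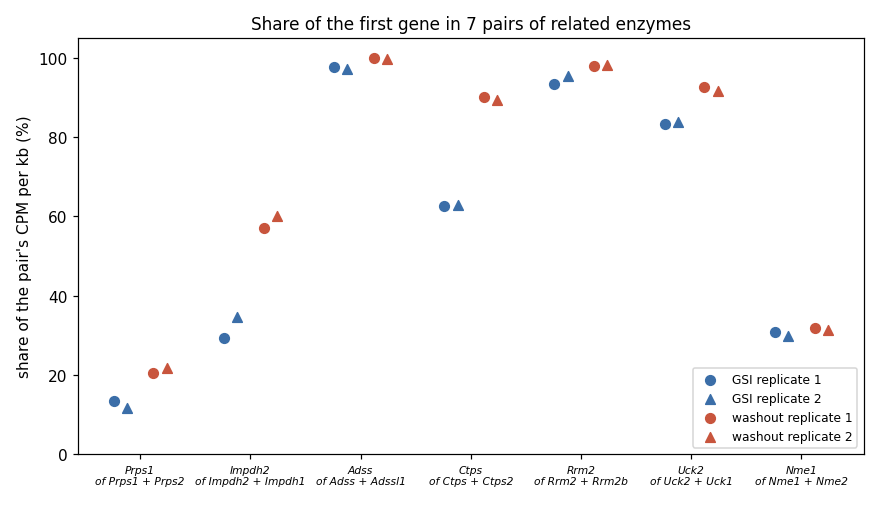
Share of the first-named gene in the summed CPM per kb (%) of each of 7 pairs of related enzymes, in each library; blue points are GSI and red points are washout, circles replicate 1 and triangles replicate 2. The share of Ctps lies at 62.7% and 62.8% in GSI and at 90.2% and 89.4% upon washout, whereas that of Nme1 lies between 29.7% and 31.8%.

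The wider nucleotide pathway was followed in 4 further lists. Of the 10 folate genes that supply formyl and methylene groups to purine and thymidylate synthesis, 6 were upregulated past both thresholds, against 7.74% of all genes tested. Their median log2 fold change was 1.97. The highest was Mthfd2, the mitochondrial methylenetetrahydrofolate dehydrogenase, which went from 34.2 and 47.9 CPM to 174 and 210 CPM (2.23 ± 0.19). Shmt2, the mitochondrial serine hydroxymethyltransferase, went from 120 and 129 CPM to 544 and 590 CPM, and was chosen for mention after its values were seen. The lowest was Aldh1l1, a formyltetrahydrofolate dehydrogenase, at 2.44 and 6.31 CPM before and 1.35 and 2.83 CPM after the washout (-1.10 ± 0.57, adjusted p = 0.151).

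Further salvage enzymes and kinases had 5 of 19 tested genes upregulated past both thresholds, against 7.74% of all genes tested, and by the adjusted p alone 9 rose and 3 fell, with a median of 0.33. The highest of these was Dctd, deoxycytidylate deaminase, which makes dUMP for thymidylate synthesis and went from 3.94 and 5.21 CPM to 24.2 and 25.2 CPM (2.46 ± 0.18). Its rise was larger than that of any of the 36 genes, from a lower level. The lowest was Cmpk2, at 1.22 and 1.10 CPM and then 0.764 and 0.298 CPM (-0.98 ± 0.47, adjusted p = 0.124). Genes of nucleotide breakdown had 1 of 12 tested genes up past both thresholds, Dctpp1, a dCTP pyrophosphatase (1.30 ± 0.11), while 10 of 12 rose and 1 fell by the adjusted p alone, with a median of 0.63. Over all genes tested, 7.74% were up past both thresholds and 27.0% by the adjusted p alone. The lowest of them was Ampd3, an AMP deaminase, at -0.70 ± 0.22 (adjusted p = 0.0376). Of 4 nucleoside transporters tested, 1 fell past both thresholds, against 11.7% of all genes tested, with a median of -0.51. By the adjusted p alone 2 fell, against 25.4% of all genes tested, and 0 rose. Slc29a3, a transporter of lysosomal membranes, went from 50.9 and 55.0 CPM to 25.1 and 23.7 CPM (-1.11 ± 0.11). The highest was Slc29a2, at 2.38 and 3.29 CPM and then 4.35 and 4.02 CPM (0.59 ± 0.27, adjusted p = 0.115). Folate supply thus had the highest median of these lists and transporters the lowest.

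**Figure D4:**
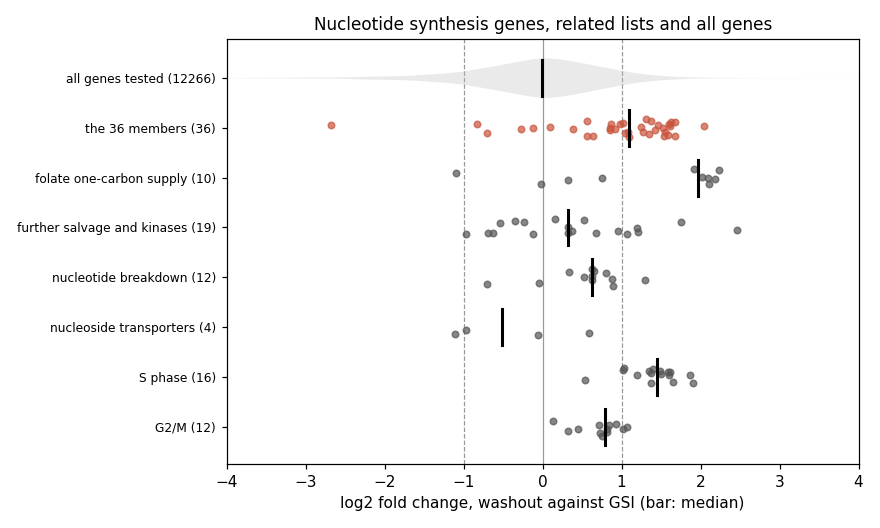
Log2 fold change of washout against GSI for all 12266 genes tested (grey shape), the 36 genes, the 4 further lists of the nucleotide pathway, and S phase and G2/M genes, with the number of genes tested in parentheses, 1 point per gene and a bar at each median; 37 of all genes lie beyond -4 or 4. The median is 1.09 for the 36 genes, 1.97 for folate supply, 1.44 for S phase, -0.51 for transporters and -0.01 for all genes.

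Genes of the cell cycle moved alongside. Of 16 S phase genes 15 were upregulated past both thresholds, against 7.74% of all genes tested. Their median log2 fold change was 1.44, from 0.54 for Ccne1 to 1.90 for Mcm5. The summed level of the S phase genes went from 2501 and 3253 CPM to 7683 and 7794 CPM. Of 12 G2/M genes 2 were upregulated past both thresholds and 11 rose by the adjusted p alone, against 7.74% and 27.0% of all genes tested, with a median of 0.78, from 0.13 for Cenpf to 1.07 for Bub1b. The part of the cell cycle in the rise of the nucleotide genes was not tested. Of 10 known Notch targets, 8 were upregulated past both thresholds, against 7.74% of all genes tested. Their log2 fold changes ran from 0.14 for Notch3, which did not pass, to 3.47 for Hey1. Myc, also not called, went from 157 and 152 CPM to 283 and 334 CPM. Its log2 fold change of 0.997 ± 0.12 (adjusted p = 0.00102) lay just below the fold threshold.

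The libraries held 13716199 to 36364200 counts, and the deeper library was replicate 1 in both conditions. A count of 3, taken as the limit of detection, corresponds to 0.0881 to 0.223 CPM, and all of the 36 genes but Adssl1 were at 17.5 CPM or more in each library. Pre-T markers were abundant, with all 11 tested and a summed level of 5870 to 6343 CPM over the 4 libraries; past both thresholds Ptcra rose (2.37) and Gata3 fell (-1.67), and by the adjusted p alone 3 rose and 4 fell. Those of B cells summed to less than 1 CPM, with Ebf1 and Pax5 at 0. Of 9 myeloid and mast cell markers, the 3 tested, Cpa3, Itgam and Kit, all fell past both thresholds. Cpa3 went from 176 and 77.4 CPM to 9.34 and 2.23 CPM (-4.30). Itgam went from 48.7 and 37.9 CPM to 5.38 and 4.76 CPM (-3.08), and Kit from 98.8 and 89.3 CPM to 36.3 and 28.3 CPM (-1.53). The list summed to 324 and 205 CPM in GSI and to 51.2 and 35.4 CPM upon washout, with Lyz2, Elane, Fcer1a and Ms4a2 at 0. Of 5 erythroid markers 3 were tested, of which 2, Gata1 (-1.26) and Klf1 (-1.18), fell past both thresholds. By the adjusted p alone all 3 fell, with Epor at -0.86. Their summed levels were 21.5 to 23.9 CPM in GSI and 10.8 to 11.3 CPM upon washout, with Hba-a1 and Hbb-b1 at 0. Of 4 stromal markers 3 were tested, of which 1 fell past both thresholds, Col1a1 (-3.59), from only 0.906 and 1.23 CPM in GSI. By the adjusted p alone 2 fell, with Pdgfrb at -0.51. The stromal list summed to 45.2 to 47.6 CPM in GSI and 27.9 to 36.5 CPM upon washout. Over all genes tested, 11.7% fell and 7.74% rose past both thresholds, and 25.4% fell and 27.0% rose by the adjusted p alone. The part of these markers in the results was not tested.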

How the data were processed

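RNA-Seq libraries of Beko cells (2 GSI, 2 washout) were made by the authors from total RNA depleted of ribosomal RNA, with a stranded kit. Reads were trimmed and aligned to mm9 with HISAT2 (2.2.1) by the authors, with 1 alignment reported per read and introns of up to 3000 bases. The authors deposited raw counts per gene, not normalized. The submitters' processing notes also name DESeq2 1.24.0. The strand setting of the counting is not given in the sources used here.

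edgeR 4.0.16 (R 4.3.3) was run on the deposited counts (filterByExpr, TMM, quasi-likelihood test, no covariates, Benjamini-Hochberg adjustment). Standard errors were obtained from the log2 fold change and F. The genes, their groups and the further lists were chosen with earlier results of these data known. Values in every library are given for all 36 genes. Of each further list with tested genes, the highest and lowest of these are named. Positions and exon lengths are from GENCODE vM1 (mm9), and promoters from RefSeq (GRCm38.p6), placed in mm9 by exact match. The limit of detection of 3 counts covers counting error only.

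The 15 alternatives were DESeq2 1.42.0, its size factors in edgeR, the total count, no filter beyond 1 count, a minimum of 10 counts per library, a replicate block, thinning to the smallest library with and without the block, glmTreat, an offset for GC content and exon length with and without the block (89.4% of the genes tested and 34 of the 36 genes had both values), and leaving out each library in turn, where the lone library of a condition is assumed to vary like those of the other.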

Additional observations from a re-analysis of the deposited data

How the results depend on the processing

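Over those of the 15 alternatives in which each was fitted, 29 of the 36 genes kept a positive log2 fold change, 4 a negative one, and 3 changed sign: Ada (-0.11 with the total count, -0.078 to 0.23 without a library), Uck1 (0.024 with the GC content and exon length offset, 0.0195 with the replicate block and that offset) and Cmpk1 (-0.11 to 0.73 without a library). Of the 21 genes upregulated past both thresholds, 17 stayed so in every alternative in which they were fitted but glmTreat, which tests against a log2 fold change of 1 and kept 13; by its p alone it also gave 13. Nme2 and Uck2 had no value with the GC content offset. The 4 others were Gmps, Hprt, Dhodh and Uck2. The number of the 36 genes downregulated past both thresholds was 2 with the total count, with the GC content offset and with the replicate block and that offset, each adding Ctps2, was 0 with at least 10 counts in every library, which removes Adssl1 from the test, and ranged from 1 to 2 without a library (2 without washout replicate 1, adding Rrm2b). Their median log2 fold change was 0.89 with the total count, 1.12 with no filter beyond 1 count and 1.08 to 1.18 without a library. Over all genes, 586 were upregulated with the total count, 308 with glmTreat, which also called 501 downregulated. The cause was not tested where a construction named here does not give it.

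The replicate block gave 981 genes upregulated and 1576 downregulated, and it moved no call past both thresholds among the 36 genes. By the adjusted p alone it gave 30 genes up in place of 29, adding Cmpk1 (0.36, adjusted p = 0.000674). Deviations of same-numbered libraries from their condition means correlated at 0.497, with 2 pairs only, and the labels do not say that a number marks a shared culture, so the numbers were not taken as pairs. The Adssl1 values, from 4 to 59 counts, are those that depth limits most.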
